A study of Saccharomyces cerevisiae with 12 samples.

Results

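The tricarboxylic acid (TCA) cycle genes described here are 10 of the 7108 named features of a gene count table from *Saccharomyces cerevisiae*. They were taken by their systematic names: *CIT1*, *ACO1*, *IDH1*, *IDH2*, *KGD1*, *KGD2*, *LSC1*, *LSC2*, *FUM1* and *MDH1*. Per the methods of the study, RNA came from exponentially growing YPD cultures. It was sequenced for 4 groups with 3 libraries each. In the nascent *ulp2Δ* group the *ULP2* gene, which encodes a protease that shortens chains of the small ubiquitin-like modifier SUMO, had been lost only recently. Line 6 and line 9 had been passaged without *ULP2* for 500 generations. WT is strain MHY1379, which also carries the chromosomal *ulp2* deletion but keeps *ULP2* on a plasmid, so the deletion is common to all 4 groups and the plasmid copy sets WT apart. Each evolved group is 1 line. Per the paper, both evolved strains in its RNA-seq carry the change C162S in Uba2, a subunit of the SUMO-activating enzyme. In 1 of them Uba2 also carries A414P. Which of these Uba2 genotypes belongs to line 6 or to line 9 is not given by the labels. In comparisons of the lines with WT, passaging and these changes cannot be told apart. Replicates are numbered without a statement on separate cultures, so p-values measure only the spread between these libraries.

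The TCA cycle oxidizes acetyl-CoA in the mitochondrial matrix and passes the electrons to the respiratory chain, while 2-oxoglutarate and other intermediates leave it for amino acid synthesis. In yeast growing on glucose, transcription of many of its genes is held down by glucose repression. The Hap2/3/4/5 complex, which binds CCAAT boxes, and the Rtg1/Rtg3 pair, which binds GTCAC boxes, are known activators of genes of the cycle. *CIT1* encodes the citrate synthase that opens the cycle and *ACO1* encodes aconitase, the enzyme of the next step. *IDH1* and *IDH2* encode the subunits of the NAD-dependent isocitrate dehydrogenase, *KGD1* and *KGD2* the dehydrogenase and succinyltransferase components of the 2-oxoglutarate dehydrogenase complex, and *LSC1* and *LSC2* the alpha and beta subunits of succinyl-CoA ligase. *FUM1* encodes fumarase and *MDH1* the mitochondrial malate dehydrogenase that closes the cycle.

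The libraries held 20467216 to 30719553 counts on named genes. *ULP2* itself had at most 20 counts in any nascent, line 6 or line 9 library and 8519 to 10694 counts in WT, as the labels require. All 10 genes passed the filter on low counts, with 7308 to 185520 counts per library. Their levels are given in CPM, counts relative to the size of the library, with library sizes scaled by the trimmed mean of M-values (TMM). Such values are relative to the scaled size of a library, and the amount of RNA per cell was not measured.

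The regions upstream of *IDH1*, *KGD2*, *ACO1*, *CIT1* and *LSC1* are shown as examples. In nascent *ulp2Δ* against WT, *IDH1* had the largest and *LSC1* the smallest change of the 10, *KGD2* fell by more than 2-fold, and *ACO1* fell although most genes of its chromosome were higher. *CIT1* had the highest mean level of the 10 per length in every group. Each sequence runs 5′ to 3′ on the strand of its gene over 300 bases that begin 450 bases before the start codon in the R64 (sacCer3) genome of RefSeq, and capitals mark CCAAT or GTCAC on either strand.
IDH1 (chrXIV:559153-559452, minus strand): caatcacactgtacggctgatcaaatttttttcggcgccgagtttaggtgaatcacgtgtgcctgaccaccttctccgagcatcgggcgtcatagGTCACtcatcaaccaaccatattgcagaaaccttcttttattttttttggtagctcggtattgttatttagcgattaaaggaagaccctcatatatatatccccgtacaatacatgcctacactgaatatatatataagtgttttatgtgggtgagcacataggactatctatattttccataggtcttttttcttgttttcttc
KGD2 (chrIV:755217-755516, minus strand): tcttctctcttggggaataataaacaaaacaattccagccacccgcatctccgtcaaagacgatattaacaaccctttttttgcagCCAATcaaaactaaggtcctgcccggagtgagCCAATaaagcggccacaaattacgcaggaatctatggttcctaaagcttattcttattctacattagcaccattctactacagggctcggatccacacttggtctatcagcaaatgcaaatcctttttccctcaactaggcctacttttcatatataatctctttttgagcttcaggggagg
ACO1 (chrXII:737699-737998, minus strand): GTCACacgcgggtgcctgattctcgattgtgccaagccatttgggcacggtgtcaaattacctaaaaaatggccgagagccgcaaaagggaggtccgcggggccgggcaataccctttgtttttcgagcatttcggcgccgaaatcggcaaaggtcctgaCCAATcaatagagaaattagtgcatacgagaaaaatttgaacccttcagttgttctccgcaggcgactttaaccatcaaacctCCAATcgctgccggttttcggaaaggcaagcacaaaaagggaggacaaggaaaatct
CIT1 (chrXIV:631212-631511, minus strand): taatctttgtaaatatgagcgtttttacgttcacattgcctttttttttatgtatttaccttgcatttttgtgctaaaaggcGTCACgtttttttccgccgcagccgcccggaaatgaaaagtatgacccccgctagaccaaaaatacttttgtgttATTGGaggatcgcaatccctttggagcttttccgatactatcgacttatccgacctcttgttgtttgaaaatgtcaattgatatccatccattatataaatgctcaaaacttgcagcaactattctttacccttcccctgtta
LSC1 (chrXV:592607-592906, plus strand): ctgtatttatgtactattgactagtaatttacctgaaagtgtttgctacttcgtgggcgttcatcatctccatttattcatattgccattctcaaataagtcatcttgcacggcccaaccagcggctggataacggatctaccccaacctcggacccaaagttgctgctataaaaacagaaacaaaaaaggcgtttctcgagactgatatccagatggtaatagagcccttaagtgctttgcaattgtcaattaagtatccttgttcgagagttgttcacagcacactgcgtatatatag
The letters CCAAT, which read ATTGG from the other strand, were found in this window in 6 of the 10 genes, namely *CIT1*, *ACO1*, *KGD1*, *KGD2*, *FUM1* and *MDH1*, and in 45.3% of the 5822 windows of tested protein-coding genes. At least 2 copies were found for *ACO1*, *KGD1*, *KGD2* and *FUM1*, and in 13.2% of all windows. The letters GTCAC, which read GTGAC from the other strand, were found for *CIT1*, *ACO1*, *IDH1*, *KGD1* and *FUM1*, and in 29.6% of all windows. The windows of *IDH2*, *LSC1* and *LSC2* held neither motif, and that of *LSC2* overlaps the neighbouring gene *SDA1*. These matches are descriptions of letters in a fixed window and not binding sites.

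All 10 genes were lower in nascent *ulp2Δ* than in WT, and for none of them did the libraries of the groups overlap, against 40.5% of all tested genes with every nascent library below every WT library. The adjusted p was under 0.05 for 10 of 10 genes, against 39.7% of the 6372 tested genes called lower (27.9% with library totals). Those lower by 2-fold or more numbered 5, namely *IDH1*, *MDH1*, *KGD2*, *IDH2* and *FUM1*, against 2.67% of all tested genes. The log2 fold changes ranged from -1.54 to -0.47 with a median of -0.99, beside a median of -0.03 over all tested genes. The number past 2-fold depended on scaling, since *IDH2* and *FUM1* fell short of it with library totals and with TMM factors taken from genes outside chromosomes I, XII and the mitochondrial genome. Each left 3, beside 1.79% of all tested genes with library totals and 2.09% with these factors. The plot of CPM by library shows the nascent libraries as the lowest of every panel.

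**Figure D1:**
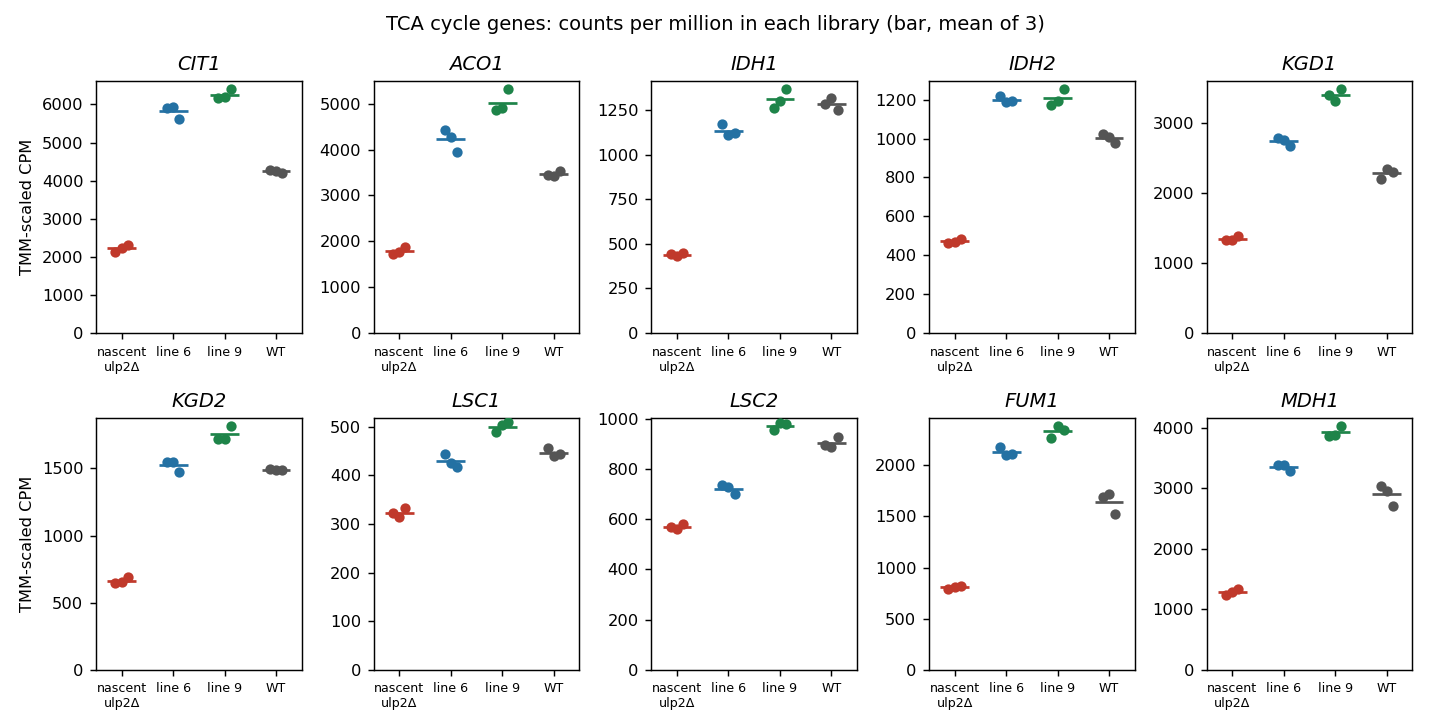
TMM-scaled CPM of the 10 TCA cycle genes (y axes, starting at 0) in each library of nascent ulp2Δ, line 6, line 9 and WT (x axis), with points for the 3 libraries and a bar for their mean. The nascent libraries lie below all others for every gene, and the line 9 mean is the highest for every gene.

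*CIT1* (YNR001C, chromosome XIV from 629622 to 631061) had 2135, 2227 and 2307 CPM in the nascent *ulp2Δ* libraries, 5896, 5924 and 5625 in line 6, 6166, 6198 and 6401 in line 9 and 4286, 4257 and 4212 in WT. Every nascent library lay below WT, and both evolved lines lay above WT without overlap. The log2 fold change of *CIT1* against WT was -0.94 (standard error 0.04, adjusted p = 1.01e-11) in the nascent strain, 0.45 (standard error 0.04, adjusted p = 3.07e-08) in line 6 and 0.56 (standard error 0.04, adjusted p = 6.19e-09) in line 9.

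*ACO1* (YLR304C, chromosome XII from 735212 to 737548) is the only one of the 10 genes on chromosome XII. It had 1727, 1763 and 1881 CPM in the nascent *ulp2Δ* libraries, 4423, 4281 and 3958 in line 6, 4854, 4910.4 and 5315 in line 9 and 3455, 3414 and 3528 in WT. The nascent libraries were low and those of line 9 high, with line 6 between line 9 and WT. Its log2 fold change against WT was -0.95 (standard error 0.05, adjusted p = 1.48e-10) in the nascent strain, 0.28 (standard error 0.05, adjusted p = 8.56e-05) in line 6 and 0.54 (standard error 0.05, adjusted p = 1.63e-07) in line 9. In nascent cells the other 501 tested genes of chromosome XII had a median log2 fold change of 0.69, whereas *ACO1* fell, and its change relative to that median was -1.65. For the other 9 genes the median of the chromosome lay between -0.16 and -0.04. Measured against its own chromosome, *ACO1* fell further in nascent cells than *IDH1*, whose value relative to chromosome XIV was -1.42. In the evolved lines the median of chromosome XII was -0.06 in line 6 and -0.05 in line 9, and *ACO1* stood 0.34 and 0.59 above it. From earlier work, the paper describes aneuploidy of several chromosomes soon after loss of Ulp2 and a return to euploidy with long passaging. Chromosome copy number was not measured in these libraries, and its part in the medians was not tested.

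Of the pair that forms isocitrate dehydrogenase, *IDH1* had the largest fall of the 10 genes. *IDH1* (YNL037C, chromosome XIV from 557920 to 559002) had 444, 429 and 447 CPM in the nascent *ulp2Δ* libraries, 1172, 1109 and 1122 in line 6, 1261, 1301 and 1365 in line 9 and 1283, 1317 and 1249 in WT. The nascent libraries were far below all others, and line 6 stayed below WT in every library whereas line 9 overlapped WT. The log2 fold change against WT was -1.54 (standard error 0.04, adjusted p = 8.29e-14) in the nascent strain, -0.18 (standard error 0.04, adjusted p = 0.00067) in line 6 and 0.03 (standard error 0.04, adjusted p = 0.521) in line 9. In nascent cells 0.628% of the tested genes had a lower fold change than *IDH1*.

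*IDH2* (YOR136W, chromosome XV from 580250 to 581359) had 464, 471 and 484 CPM in the nascent *ulp2Δ* libraries, 1217, 1190.2 and 1191 in line 6, 1171, 1193 and 1257 in line 9 and 1025, 1007 and 976 in WT. Here both lines lay above WT in every library and overlapped each other. The log2 fold change against WT was -1.08 (standard error 0.04, adjusted p = 1.21e-12) in the nascent strain, 0.26 (standard error 0.04, adjusted p = 9.08e-06) in line 6 and 0.27 (standard error 0.04, adjusted p = 9.4e-06) in line 9. The partner subunits therefore moved in opposite directions against WT in line 6.

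The components of 2-oxoglutarate dehydrogenase differed in size of response. *KGD1* (YIL125W, chromosome IX from 122689 to 125733) had 1331, 1325 and 1379 CPM in the nascent *ulp2Δ* libraries, 2786, 2755 and 2676 in line 6, 3395, 3306 and 3489.6 in line 9 and 2200.0, 2344 and 2299 in WT. *KGD2* (YDR148C, chromosome IV from 753675 to 755066) had 645, 657 and 688 CPM in the nascent *ulp2Δ* libraries, 1549.8, 1546 and 1476 in line 6, 1723, 1722 and 1819.7 in line 9 and 1497, 1487 and 1487 in WT. Both were lowest in nascent cells and highest in line 9, and line 6 exceeded WT in every library for *KGD1* only, while it overlapped WT for *KGD2*. *KGD1* had a log2 fold change against WT of -0.76 (standard error 0.04, adjusted p = 7.68e-11) in the nascent strain, 0.26 (standard error 0.04, adjusted p = 1.03e-05) in line 6 and 0.57 (standard error 0.04, adjusted p = 3.44e-09) in line 9. For *KGD2* the values were -1.17 (standard error 0.04, adjusted p = 7.89e-13) in the nascent strain, 0.03 (standard error 0.04, adjusted p = 0.445) in line 6 and 0.24 (standard error 0.04, adjusted p = 4.64e-05) in line 9. With library totals the value in line 6 was -0.0703 (adjusted p = 0.0555).

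The succinyl-CoA ligase genes changed least in nascent cells. *LSC1* (YOR142W, chromosome XV from 593057 to 594046) had 322, 314 and 332 CPM in the nascent *ulp2Δ* libraries, 444, 426 and 418 in line 6, 489, 503 and 509 in line 9 and 455, 439 and 443 in WT. *LSC2* (YGR244C, chromosome VII from 978036 to 979319) had 568, 561 and 579 CPM in the nascent *ulp2Δ* libraries, 738, 728 and 699 in line 6, 953, 983 and 978 in line 9 and 894, 888 and 927 in WT. Line 6 was below WT in every library for *LSC2* and overlapped WT for *LSC1*, whereas line 9 was above WT for both. The log2 fold change of *LSC1* against WT was -0.47 (standard error 0.04, adjusted p = 1.14e-08) in the nascent strain, -0.05 (standard error 0.04, adjusted p = 0.172) in line 6 and 0.17 (standard error 0.04, adjusted p = 0.000687) in line 9. That of *LSC2* was -0.67 (standard error 0.03, adjusted p = 1.17e-10) in the nascent strain, -0.32 (standard error 0.03, adjusted p = 3.94e-07) in line 6 and 0.11 (standard error 0.03, adjusted p = 0.0125) in line 9. Under library totals, *LSC1* was called lower than WT in line 6 (log2 fold change -0.16, adjusted p = 0.000351) and *LSC2* was not called in line 9 (0.0730, adjusted p = 0.0577).

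The last steps of the cycle followed the pattern of its first. *FUM1* (YPL262W, chromosome XVI from 47336 to 48802) had 791, 805 and 818 CPM in the nascent *ulp2Δ* libraries, 2177, 2099.7 and 2111 in line 6, 2263, 2387 and 2350.3 in line 9 and 1694, 1721 and 1522 in WT. *MDH1* (YKL085W, chromosome XI from 279123 to 280127) had 1235, 1286 and 1337 CPM in the nascent *ulp2Δ* libraries, 3379.6, 3390.4 and 3292 in line 6, 3859, 3888 and 4027 in line 9 and 3044, 2959.7 and 2701 in WT. For both, every nascent library was below and every evolved library above all WT libraries. *FUM1* had a log2 fold change against WT of -1.03 (standard error 0.04, adjusted p = 1.88e-11) in the nascent strain, 0.37 (standard error 0.04, adjusted p = 1.7e-06) in line 6 and 0.50 (standard error 0.04, adjusted p = 1.01e-07) in line 9. The values of *MDH1* were -1.17 (standard error 0.05, adjusted p = 6.45e-12) in the nascent strain, 0.21 (standard error 0.05, adjusted p = 0.000662) in line 6 and 0.44 (standard error 0.05, adjusted p = 6.8e-07) in line 9.

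**Figure D2:**
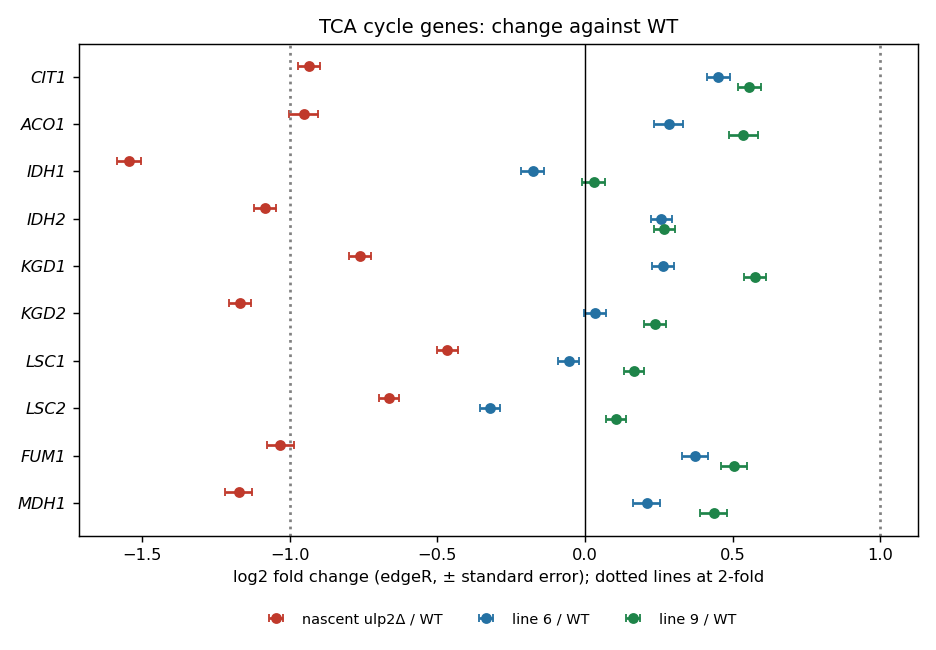
Log2 fold change against WT (x axis) of the 10 TCA cycle genes (rows) in nascent ulp2Δ, line 6 and line 9, with points for the edgeR estimate, bars for its standard error and dotted lines at 2-fold. Nascent values run from -1.54 (IDH1) to -0.47 (LSC1), and no evolved value passes 2-fold.

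In line 6 a higher level than in WT was called for 6 of the 10 genes (*CIT1*, *FUM1*, *ACO1*, *KGD1*, *IDH2* and *MDH1*), against 36.8% of tested genes, and 2 (*IDH1* and *LSC2*) lower, against 37.2%. *KGD2* and *LSC1* were not called. In line 9 as many as 9 genes were called higher than WT, against 32.5% of tested genes, 33.9% being lower, and *IDH1* was the exception. No gene passed 2-fold in either line, whereas 4.5% of all tested genes were higher and 10.5% lower by 2-fold in line 6, and for line 9 the percentages were 1.74% higher and 4.94% lower. The median log2 fold change was 0.23 in line 6 and 0.35 in line 9, beside -0.01 and -0.01 over all tested genes. With library totals the line 6 median was 0.13, where that of all tested genes shifted by -0.10. Summed over the 10 genes, the share of a library's counts was 1.07 to 1.13% in the nascent strain, 2.12 to 2.19% in line 6, 2.57 to 2.65% in line 9 and 1.96 to 1.97% in WT. These shares do not overlap between any of the groups.

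Compared directly with nascent *ulp2Δ*, all 10 genes were higher in line 6 and all 10 in line 9, with no overlap of libraries. Every library was higher for 41.1% of all tested genes in line 6 and 39.8% in line 9. For line 6, 40.1% of all tested genes were called higher (25.5% with library totals), and for line 9 38.2% (26.2%). In each line 8 of the 10 were higher by 2-fold or more, against 5.23% of all tested genes in line 6 and 3.75% in line 9, and the exceptions were *LSC1* and *LSC2* in both. The comparisons with nascent cells share the same nascent libraries. The largest difference in line 6 was that of *FUM1* at 1.40 (standard error 0.04, adjusted p = 2.44e-13), and in line 9 that of *MDH1* at 1.61 (standard error 0.05, adjusted p = 1.61e-13). *LSC2* had 0.34 (standard error 0.03, adjusted p = 1.75e-07) in line 6 and 0.77 (standard error 0.03, adjusted p = 1.47e-11) in line 9. The values of *LSC1* were 0.41 (standard error 0.04, adjusted p = 3.23e-08) in line 6 and 0.63 (standard error 0.04, adjusted p = 2.4e-10) in line 9. The other 7 genes of line 6 lay between 1.03 (*KGD1*) and 1.39 (*CIT1*), and those of line 9 between 1.34 (*KGD1*) and 1.57 (*IDH1*). The median over the 10 genes was 1.29 in line 6 and 1.45 in line 9. Scaled by library totals, 5 genes passed 2-fold in line 6, beside 2.84% of all tested genes.

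The evolved lines also differed from each other. All 10 genes had a lower mean in line 6 than in line 9, 9 of them with an adjusted p under 0.05 and no overlap of libraries, against 29.4% of tested genes called lower (36.5% with library totals) and 31.4% without overlap. The differences were small, with a median log2 of -0.21, and none reached 2-fold, which 2.35% of all tested genes did. *LSC2* had the largest at -0.43 (standard error 0.03, adjusted p = 3.32e-08), followed by *KGD1* at -0.31 (standard error 0.04, adjusted p = 3.54e-06) and *ACO1* at -0.25 (standard error 0.05, adjusted p = 0.000419). *IDH2* was not called at -0.01 (standard error 0.04, adjusted p = 0.849), but with library totals it was called lower in line 6 (-0.0796, adjusted p = 0.0311). The highest adjusted p among the calls were those of *CIT1*, with -0.11 (standard error 0.04, adjusted p = 0.0271), and *FUM1*, with -0.13 (standard error 0.04, adjusted p = 0.0184). That of *CIT1* was lost without line 6 replicate 3 (log2 difference -0.08, adjusted p = 0.106), line 9 replicate 2 (-0.11, 0.0522) or line 9 replicate 3 (-0.09, 0.0900), and that of *FUM1* without line 6 replicate 2 (-0.12, 0.0619) or line 9 replicate 2 (-0.12, 0.0716).

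**Figure D3:**
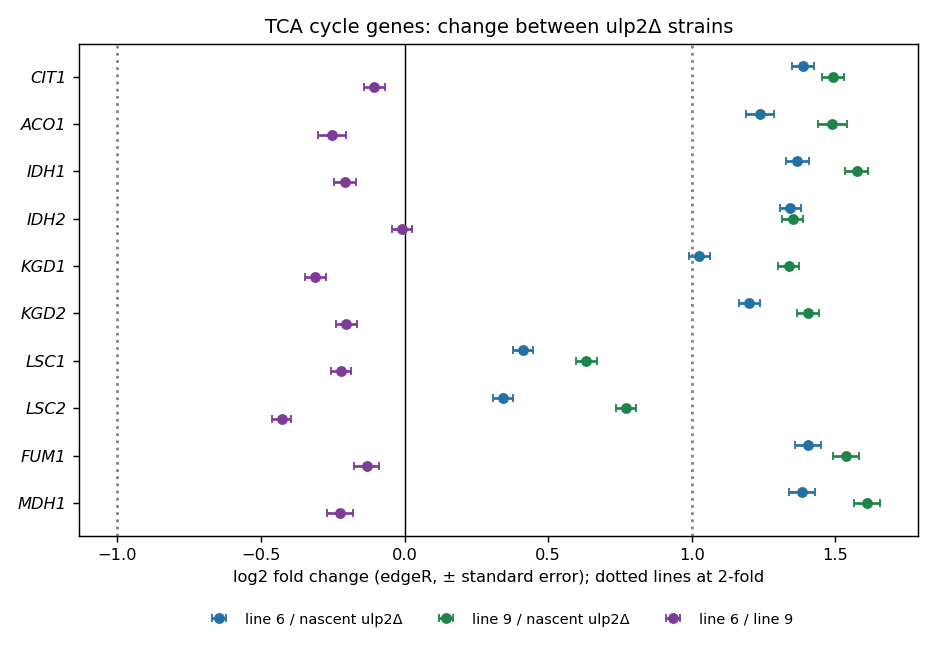
Log2 fold change (x axis) of the 10 TCA cycle genes (rows) in line 6 and line 9 against nascent ulp2Δ and in line 6 against line 9, with points for the edgeR estimate, bars for its standard error and dotted lines at 2-fold. LSC1 and LSC2 stay short of 2-fold against nascent cells, and the values of line 6 against line 9 lie between -0.43 (LSC2) and -0.01 (IDH2).

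Partner subunits were compared within a library as the ratio of their counts per kb of coding sequence. The ratio of *IDH1* to *IDH2* was 0.979, 0.934 and 0.947 in nascent *ulp2Δ*, 0.987, 0.955 and 0.965 in line 6, 1.1, 1.12 and 1.11 in line 9 and 1.28, 1.34 and 1.31 in WT. WT libraries held more *IDH1* than *IDH2*, nascent and line 6 libraries slightly less, and line 9 lay between. The mean log2 ratio was -0.46 relative to WT in the nascent strain, -0.44 in line 6 and -0.24 in line 9. Line 6 and nascent cells differed by 0.02 with overlapping libraries (exact permutation test, two-sided, p = 0.4).

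For the other pairs, the ratio of *KGD1* to *KGD2* was 0.943, 0.922 and 0.916 in nascent *ulp2Δ*, 0.822, 0.815 and 0.829 in line 6, 0.901, 0.877 and 0.877 in line 9 and 0.672, 0.721 and 0.706 in WT. The ratio was lowest in WT and highest in nascent cells. The ratio of *LSC1* to *LSC2* was 0.735, 0.725 and 0.744 in nascent *ulp2Δ*, 0.781, 0.758 and 0.775 in line 6, 0.665, 0.664 and 0.675 in line 9 and 0.661, 0.642 and 0.62 in WT. It was highest in line 6, next in the nascent strain, and lower in line 9 and WT. Apart from the *IDH1* to *IDH2* ratio of line 6 against nascent cells, the libraries did not overlap in any of the comparisons of these 3 ratios and of *ACO1* relative to chromosome XII, and the exact permutation test gave p = 0.1 for each, the smallest that 3 libraries against 3 allow, with an adjusted p of 0.104 over the 24 tests. Ratios of other gene pairs were not computed. Lack of overlap was common for single genes. Of 6372 tested genes, 2261 lay higher and 2581 lower without overlap in nascent cells against WT. In line 6 against line 9 the numbers were 1972 and 1998.

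**Figure D4:**
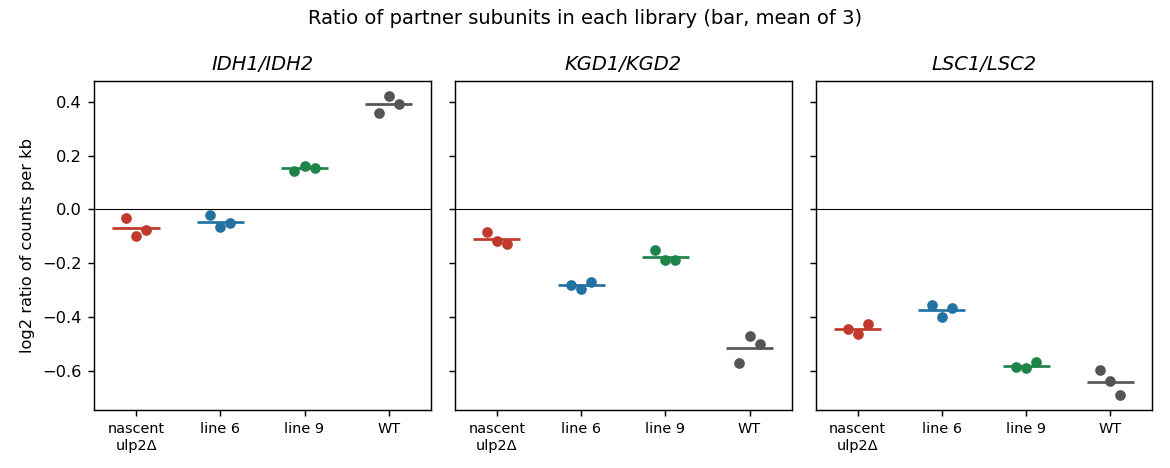
Log2 ratio of counts per kb (y axis) of IDH1 to IDH2, KGD1 to KGD2 and LSC1 to LSC2 in each library of nascent ulp2Δ, line 6, line 9 and WT (x axis), with points for libraries, bars for the mean of 3 and a line at equal levels. The IDH1 to IDH2 ratio of line 6 overlaps that of nascent cells and lies -0.44 from WT.

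Per length, *CIT1* had the highest level and *LSC1* the lowest in every group. In nascent cells the order was *CIT1* (1544 CPM per kb), *MDH1* (1279.6), *ACO1* (766), *FUM1* (549), *KGD2* (477), *LSC2* (443), *KGD1* (442), *IDH2* (426), *IDH1* (406) and *LSC1* (326). In WT it was *CIT1* (2953 CPM per kb), *MDH1* (2887), *ACO1* (1483), *IDH1* (1185), *FUM1* (1122), *KGD2* (1071), *IDH2* (903), *KGD1* (749), *LSC2* (703) and *LSC1* (450.4). *IDH1* thus stood at rank 9 in nascent cells and rank 4 in WT. Neighbours whose libraries overlapped were *LSC2* with *KGD1* and *KGD1* with *IDH2* in the nascent strain, and *CIT1* with *MDH1*, *IDH1* with *FUM1* and *FUM1* with *KGD2* in WT. In line 6, *KGD2* overlapped *IDH2* and *IDH2* overlapped *IDH1*, and in line 9, *KGD2* overlapped *IDH1* and *KGD1* overlapped *IDH2*. The highest level was 4.74 times the lowest in the nascent strain, 9.31 times in line 6, 8.6 times in line 9 and 6.56 times in WT. The coefficient of variation of a gene within a group lay between 0.363% and 6.55%.

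The cycle was also followed in 8 further genes, the succinate dehydrogenase subunits *SDH1* to *SDH4*, *LPD1*, which encodes the dihydrolipoamide dehydrogenase shared with pyruvate dehydrogenase, *KGD4*, a small subunit of the 2-oxoglutarate dehydrogenase complex, and *CIT3* and *IDP1*, which encode further mitochondrial isoenzymes. Of these, 7 were called lower and 1 (*CIT3*) higher in nascent *ulp2Δ* than in WT, with a median log2 fold change of -0.82. Of all tested genes 33.6% were called higher and 39.7% lower in that comparison. *SDH3* had a log2 fold change against WT of -1.24 (standard error 0.04, adjusted p = 2.35e-13) in nascent cells and *SDH1* of -1.01 (standard error 0.05, adjusted p = 1.95e-10). *LPD1* had -0.89 and *KGD4* -0.97 in the same cells. *SDH2*, which like *ACO1* lies on chromosome XII, had -0.46 (standard error 0.03, adjusted p = 1.07e-08), or -1.15 relative to the median of that chromosome, and *SDH4* had -0.74. In line 6, 2 of the 8 were higher and 3 lower than WT with a median of -0.03, and in line 9, 7 were higher and 0 lower with a median of 0.28. Against WT, 36.8% of all tested genes were called higher and 37.2% lower in line 6, and 32.5% and 33.9% in line 9. *SDH4* was the highest of the subunits against WT, with 0.51 (standard error 0.04, adjusted p = 2.08e-08) in line 6 and 0.63 (standard error 0.04, adjusted p = 4.06e-09) in line 9.

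The 5 isoenzymes outside the matrix did not share one direction in the nascent strain, where 2 were higher (*CIT2* and *MDH2*), 2 lower (*IDP2* and *MDH3*) and *IDP3* was not called at 0.10. In that strain 33.6% of all tested genes were called higher and 39.7% lower. All 5 isoenzymes were higher than WT in line 9, against 32.5% of all tested genes. In line 6, 4 of 5 were higher, against 36.8%, and *IDP2* was not called. The largest was *IDP3*, the peroxisomal isocitrate dehydrogenase, with 1.60 (standard error 0.05, adjusted p = 3.72e-13) in line 6 and 0.87 (standard error 0.05, adjusted p = 1.37e-09) in line 9. Against WT the log2 fold change of *CIT2*, the peroxisomal citrate synthase, was 0.49 in the nascent strain, 1.18 in line 6 and 0.55 in line 9, while that of *IDP2*, the cytosolic isocitrate dehydrogenase, was -0.66 in the nascent strain, -0.08 in line 6 and 0.52 in line 9. *MDH3*, the peroxisomal malate dehydrogenase, had -0.61 in the nascent strain, 0.40 in line 6 and 0.19 in line 9.

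Of 9 genes for pyruvate dehydrogenase, pyruvate carboxylase and the mitochondrial pyruvate carrier, 7 were lower and 2 (*MPC2* and *MPC3*) higher in nascent cells than in WT, with a median of -0.46. In line 6, 6 were higher and 1 lower than WT, and in line 9, 2 higher and 1 lower. In nascent cells 33.6% of all tested genes were called higher and 39.7% lower. The shares were 36.8% and 37.2% in line 6, and 32.5% and 33.9% in line 9. *PYC1*, a pyruvate carboxylase that makes oxaloacetate, had -0.91 (standard error 0.05, adjusted p = 1.09e-10) in the nascent strain, 0.36 (standard error 0.05, adjusted p = 3.86e-06) in line 6 and 0.30 (standard error 0.05, adjusted p = 3.46e-05) in line 9. *MPC2*, a subunit of the mitochondrial pyruvate carrier, had 0.62 (standard error 0.06, adjusted p = 4.03e-07) in nascent cells and 1.07 (standard error 0.06, adjusted p = 5.4e-10) in line 6. In line 9 it was not called at -0.08 (standard error 0.06, adjusted p = 0.294).

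The 7 genes for carriers of cycle intermediates were mixed, with 3 higher and 3 lower in the nascent strain, 2 and 4 in line 6, and 1 and 3 in line 9. *OAC1*, the oxaloacetate carrier, was the only one past 2-fold against WT, with -1.19 (standard error 0.08, adjusted p = 3.36e-09) in line 6 and -1.35 (standard error 0.08, adjusted p = 2.07e-09) in line 9, and it had -0.63 (standard error 0.08, adjusted p = 4.38e-06) in nascent cells. Among 8 regulators of the cycle's genes, *HAP4*, the activating subunit of the Hap complex, had 739, 746 and 811 CPM in the nascent strain, 1931, 1988 and 1866 in line 6, 1651, 1568 and 1693 in line 9 and 1062, 1032 and 1044 in WT. Its nascent libraries were the lowest and those of both lines lay above WT, with log2 fold changes of -0.45 (standard error 0.04, adjusted p = 1.75e-07) in the nascent strain, 0.88 (standard error 0.04, adjusted p = 4.94e-11) in line 6 and 0.65 (standard error 0.04, adjusted p = 4.94e-09) in line 9. The difference of line 6 from line 9 was 0.24 (standard error 0.04, adjusted p = 0.000233) for *HAP4*, the opposite sign to the 9 of the 10 genes called in that comparison. The other 7 regulators (*HAP2*, *HAP3*, *HAP5*, *RTG1*, *RTG2*, *RTG3* and *MKS1*) had log2 fold changes against WT between -0.18 and 0.45. With *HAP4*, 2 of 8 were higher and 3 lower in the nascent strain, 6 higher in line 6 and 7 higher in line 9. Beside these counts and those of the carriers, 33.6% of all tested genes were called higher and 39.7% lower in the nascent strain. The shares were 36.8% and 37.2% in line 6, and 32.5% and 33.9% in line 9. Whether the level of *HAP4* has a part in the values of the 10 genes was not tested.

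Because TCA cycle genes respond to glucose, 8 other glucose-repressed genes (*ADH2*, *ICL1*, *MLS1*, *FBP1*, *PCK1*, *ACS1*, *JEN1* and *SUC2*) were read in the same libraries. Their summed level was 21266 to 22846 CPM in the nascent strain, 21855 to 23355 in line 6, 26803 to 28817 in line 9 and 20477 to 21386 in WT. The sum was highest in line 9, and the nascent libraries overlapped those of WT. In each group *PCK1* was the largest part of it. The means of *PCK1* were 7190 CPM in the nascent strain, 5139 in line 6, 10151 in line 9 and 7968 in WT. Relative to length these were 4357 CPM per kb in the nascent strain, 3115 in line 6, 6152 in line 9 and 4829 in WT. *CIT1*, the highest of the 10 genes, had 1544, 4038, 4344 and 2953 CPM per kb in the same order. *PCK1* thus exceeded *CIT1* in all groups but line 6. Whether glucose repression held in these cultures was not tested. Without *ADH2*, an alternative chosen after seeing the data, the sum over the other 7 genes was 18489 to 19901 CPM in the nascent strain, 21508 to 22977 in line 6, 25680.3 to 27569.6 in line 9 and 19768 to 20604 in WT. The nascent mean was then below that of WT, and the libraries of these groups again overlapped. Against WT, 4 of the 8 were called higher and 4 lower in nascent cells. The numbers were 5 higher and 3 lower for line 6, and 7 higher and 1 lower for line 9. Of all tested genes, 33.6% were called higher and 39.7% lower in nascent cells. The shares were 36.8% and 37.2% in line 6, and 32.5% and 33.9% in line 9. *ADH2*, the alcohol dehydrogenase that oxidizes ethanol, had log2 fold changes against WT of 1.90 in the nascent strain, -1.05 in line 6 and 0.69 in line 9. *SUC2*, which encodes invertase, had 0.59 in the nascent strain, 1.05 in line 6 and -0.77 in line 9. *MLS1*, malate synthase, had -0.33 in the nascent strain, 0.86 in line 6 and 0.61 in line 9, and *JEN1*, the lactate transporter, had -0.39 in the nascent strain, 0.68 in line 6 and 0.47 in line 9. The part of culture state in the values of the 10 genes was not tested.

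**Figure D5:**
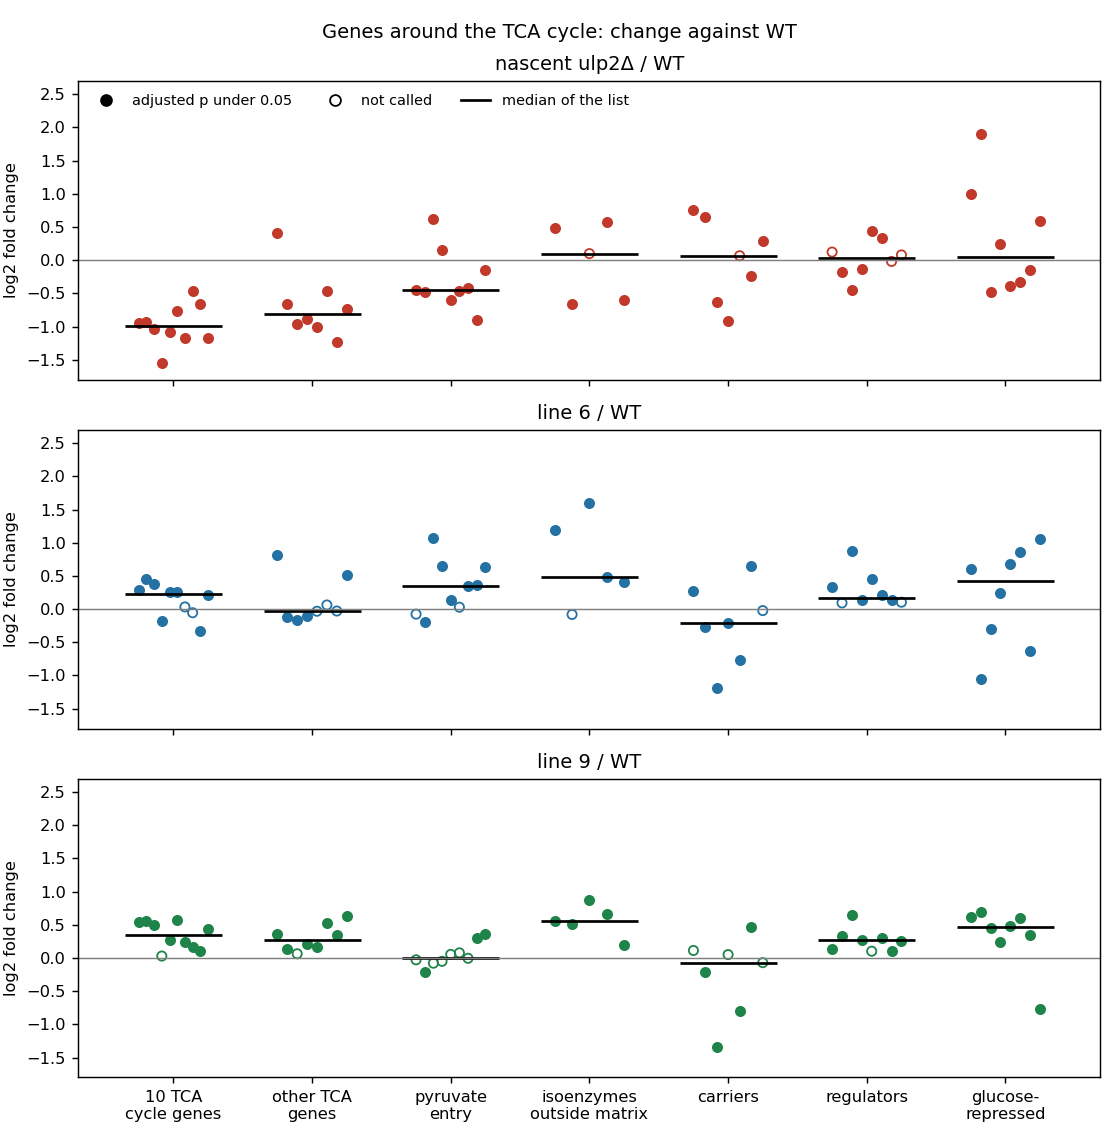
Log2 fold change against WT (y axis, the same in all panels) of the 10 TCA cycle genes and of 6 lists of related genes (x axis) in nascent ulp2Δ, line 6 and line 9, with filled points for an adjusted p under 0.05, open points for genes not called and a line at the median of a list. In nascent cells the medians are -0.99 for the 10 genes, -0.82 for the other TCA cycle genes and -0.46 for pyruvate entry.

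The genes outside the list whose profile was most like the mean of the 10 were found from log2 CPM over the 12 libraries, each gene centred on its own mean, as the smallest root mean square difference among 5818 genes that averaged 50 counts or more. The first 10 were *ATP1* (difference 0.0547), *QCR9*, *CYT1*, *MRA1*, *ATP2*, *ATP5*, *COR1*, *MRPL35*, *SDH1* and *ATP3* (0.0883). *ATP1*, *ATP2*, *ATP3* and *ATP5* encode ATP synthase subunits, *QCR9*, *CYT1* and *COR1* subunits of the cytochrome bc1 complex, and *MRPL35* a mitochondrial ribosomal protein. *ATP1* had log2 fold changes against WT of -0.96 in the nascent strain, 0.03 in line 6 and 0.36 in line 9, and *CYT1* had -1.03 in the nascent strain, 0.23 in line 6 and 0.44 in line 9. By the same measure *KGD2* was the closest of the 10 to their own mean, at 0.0685, and *LSC1* and *LSC2* were the farthest at 0.284 and 0.286. Of the 5818 genes, 2 lay closer to that mean than *KGD2*, 169 than *IDH1*, 423 than *LSC1* and 435 than *LSC2*. Each of the 10 is itself part of that mean. All points of these profiles come from the same 12 libraries, and the values are a description.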

How the data were processed

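RNA-seq was performed on 12 libraries, 3 each of nascent *ulp2Δ*, line 6, line 9 and WT. Per the labels and the methods of the study, the authors trimmed reads with Trim Galore 0.5.0, mapped them to sacCer3 with HISAT2 2.1.0, quantified SGD gene models with StringTie 1.3.3b and tested with DESeq2 1.22.1. The table deposited holds raw whole-number counts for each gene. How coverage became counts and whether strand was used are not given in the sources used here, so reads of overlapping and antisense genes cannot be told apart. The table held 7114 features, and 6 unnamed loci with 0.0826% to 0.173% of a library's counts were left out. The RefSeq annotation of R64, the sacCer3 assembly, gave symbols and positions and matched 6011 features.

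The test was the quasi-likelihood test of edgeR 4.0.16 in R 4.3.3 (TMM, filterByExpr, glmQLFit and glmQLFTest, two-sided) in 1 fit of all 12 libraries with group as the only term, after a test of the steps on simulated data. Benjamini-Hochberg adjustment ran over the 6372 tested genes, and a gene was called at an adjusted p under 0.05, with or without a 2-fold threshold. All adjusted p-values of single genes come from this test. CPM used TMM factors, and profiles used log2 CPM (prior count 2). Depth sets counting error only. Replicates differed by more than sampling noise, with a chi-square of 6.4 to 16 per degree of freedom.

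The 10 genes, the 45 related genes and the tests were chosen with earlier results of these data known, so their counts and medians are descriptions without a test of the list. All 10 genes are named, with *ULP2*, *SDH1* to *SDH4*, *LPD1*, *KGD4*, *HAP4*, the related genes that passed 2-fold in at least 1 comparison, and the 10 genes of most similar profile. *CIT3*, *IDP1*, *MDH2*, *MPC3*, *ICL1*, *FBP1*, *PCK1*, *ACS1* and the other regulators are named outside this rule, after their values were seen, to give the members of a count. *PCK1* is also given as the largest part of a sum. A further gene of the cycle is not reported here. Alternatives were DESeq2 1.42.0, other scalings and filters, fits of just the groups under comparison, a replicate block, leaving out each library, and 1.5-fold.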

Additional observations from a re-analysis of the deposited data

Results flagged for a closer look

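The changes of the 2 evolved lines against their common WT libraries differed for 9 of the 10 genes by the direct test of line 6 against line 9 (edgeR, adjusted p under 0.05), all lower in line 6, as were 29.4% of all tested genes. The log2 difference was -0.428 for *LSC2*, -0.31 for *KGD1*, -0.252 for *ACO1*, -0.227 for *MDH1*, -0.221 for *LSC1*, -0.207 for *IDH1*, -0.204 for *KGD2*, -0.132 for *FUM1* and -0.105 for *CIT1*. The calls of *CIT1* and *FUM1* were lost when single libraries were left out, with adjusted p up to 0.106 for *CIT1* and 0.0716 for *FUM1*. For *LSC2* the lines lay on opposite sides of WT, with -0.32 in line 6 and 0.11 in line 9, both called, but with library totals the line 9 value was 0.0730 and not called (adjusted p = 0.0577).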

How the results depend on the processing

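All 10 genes stayed called lower in nascent *ulp2Δ* than in WT, and called higher in both lines than in nascent cells, under every alternative run. Of 786 alternative values over the 60 gene and comparison pairs, 774 kept direction and call, 6 lost the call, 2 gained it and 4 turned direction, none of the last being called under either setting. These were *KGD2* in line 6 against WT (-0.0703 with library totals), *IDH1* in line 9 against WT (-0.0026 with library totals and -0.00079 without line 9 replicate 3) and *IDH2* in line 6 against line 9 (0.0208 without line 9 replicate 3). Without 1 library, *IDH1* in line 9 against WT ranged up to 0.0635 and *IDH2* in line 6 against line 9 down to -0.0444. Library totals shifted the median of all genes by 0.15 in nascent cells against WT, -0.10 in line 6 against WT, -0.25 in line 6 against nascent cells and -0.18 in line 9 against nascent cells. The median of the 10 genes was then -0.84 in nascent cells, 0.13 in line 6, 1.04 in line 6 against nascent cells, 1.27 in line 9 against nascent cells and -0.28 between the lines. With TMM factors from genes outside chromosomes I, XII and the mitochondrial genome it was -0.91 in nascent cells against WT, 1.20 in line 6 and 1.36 in line 9 against nascent cells. With at least 50 counts in every library it was 1.41 in line 9 against nascent cells. Genes lower by 2-fold in nascent cells numbered 3 with library totals, beside 1.79% of all tested genes, 3 with the other TMM factors, beside 2.09%, and 9 at 1.5-fold, beside 11.6%. Those higher by 2-fold in line 6 against nascent cells numbered 5 with library totals, beside 2.84%. Leaving out 1 library gave medians of -1.01 to -0.95 in nascent cells, 1.24 to 1.32 in line 6 and 1.40 to 1.46 in line 9 against nascent cells, and -0.25 to -0.19 between the lines. The mean summed level of the glucose-repressed genes in nascent cells minus that in WT was 1039 CPM, and -1040.9 CPM without *ADH2*. *ADH2* itself had a mean of 2838 CPM in nascent cells and 759 in WT. Library totals leave out the TMM factors. These factors were 1.10 to 1.11 in nascent libraries and 0.99 to 1.01 in WT. Line 6 had 0.92 to 0.94 and line 9 had 0.96 to 0.99. The cause of the other moves was not tested. Same-numbered deviations had correlations of -0.14 to 0.11 over all pairs of groups, and differently numbered ones -0.15 to 0.15. Of 12 libraries, 5 correlated best with their own number. Between nascent cells and WT the same-numbered values were 0.08 to 0.09 and the others -0.06 to -0.03. These values do not settle whether the replicate numbers pair the libraries. With the number as a block, the count of called genes changed to 98.1% to 99.7% of that without it, the median of the 10 genes in nascent cells was -0.99, and no call of the 10 genes changed.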
